A study of Mus musculus with 12 samples.

Results

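The 6 null libraries of this mouse prostate series, out of 12 in all, fall into 2 sets of 3 in the deposited values, libraries 1 to 3 and libraries 4 to 6. The sets were chosen by their values and no label names them, so every difference between them is a description and carries no test. Null mice lack the gene under study on both alleles (-/-) and were compared by the study with 6 libraries from wild-type (+/+) mice. Both groups were aged 4 months, were of a hybrid 129/SvImJ and C57Bl/6J strain and had been treated with paraquat, a herbicide that drives the formation of superoxide in cells, and no untreated group is part of the samples analysed here. Libraries are numbered by accession, and the labels do not say whether libraries came from separate mice, which lobes were taken, or whether anything distinguished the sets.

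The mouse prostate is a group of paired glands that empty into the urethra beside the seminal vesicles and the vasa deferentia. Its luminal cells secrete proteins into semen, a sheath of smooth muscle expels the fluid, and autonomic nerves from the pelvic ganglia drive both. The seminal vesicle and vas deferens arise from the Wolffian duct and the prostate from the urogenital sinus, so each has secretory products by which it is known. Antibody in the secretions comes from plasma cells in the stroma and is carried across the epithelium.

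Of 39179 genes in the table, 16848 reached 4 in no fewer than 3 of the 6 null libraries and were kept. Values are on a log2 scale with a floor near 1.97, so a difference measured from that floor is not a fold change. A gene was counted as higher or lower when the set means differed by at least 1 and the 3 values of one set did not overlap the 3 of the other. By that rule 1303 genes (7.73%) were higher in libraries 1 to 3 and 383 (2.27%) were lower, and the same rule applied to wild-type libraries 1 to 3 against 4 to 6 gave 579 (3.44%) higher and 244 (1.45%) lower. These counts follow from how the sets were found. Without regard to size, the sets did not overlap for 11397 of the genes kept (67.6%). The median difference over all genes kept was -0.01, and 86 genes were higher in libraries 1 to 3 by at least 4 against 4 genes in libraries 4 to 6. After quantile normalization the split was 1101 higher to 536 lower. At the edge of the filter, the third highest value was 4.001 in the lowest gene kept and 4.0 in the highest gene left out, and 758 genes had exactly 3 values of 4 or more, 468 of them all from libraries 1 to 3 and 107 all from libraries 4 to 6.

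Libraries of one set were close to one another. Any 2 of libraries 1 to 3 differed at a median gene by 0.080 to 0.084, any 2 of libraries 4 to 6 by 0.091 to 0.109, and any 2 from different sets by 0.300 to 0.325. Between 47 and 49 genes differed by at least 1 within the first set, 130 to 159 within the second and 1789 to 1899 between sets. For 556 genes whose whole reads could be recovered, the median chi-square was 0.703 to 1.138 for pairs within libraries 1 to 3 and 0.949 to 3.076 within libraries 4 to 6, where sampling noise alone gives 0.455, and 25.6 to 40.5 for pairs from different sets. Estimated depth ran from 14.8 to 20.5 M reads per library. No pair agreed within sampling noise, so no libraries were merged, but spread within a set this small may be technical and may not stand for spread between mice.

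The label of prostate was checked against prostate secretory genes. Probasin (Pbsn), an androgen-driven product of mouse prostate epithelium, was at 11.84, 11.81 and 11.45 in null libraries 1 to 3 and at 10.37, 10.44 and 10.45 in libraries 4 to 6, against 18.12 to 18.76 in wild type. Beta-microseminoprotein (Msmb) was at 12.78 ± 0.04 (SD, n = 3) and 12.80 ± 0.02 in the null sets and at 15.71 ± 0.24 (SD, n = 6) in wild type. Both sets thus held prostate transcripts, at levels below those of wild type, and none of the 12 luminal epithelial genes listed passed the rule. Without regard to size, the sets did not overlap for 3 that were higher and 7 that were lower in libraries 1 to 3, beside 67.6% of all genes kept. The keratins Krt8 and Krt18, which form the filaments of simple epithelia, stood at 12.27 against 12.42 and 13.30 against 13.34. The epithelial adhesion gene Epcam was 0.84 lower in libraries 1 to 3 and Hoxb13, a homeobox factor of the prostate lineage, 0.78 lower, both short of the rule.

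**Figure D1:**
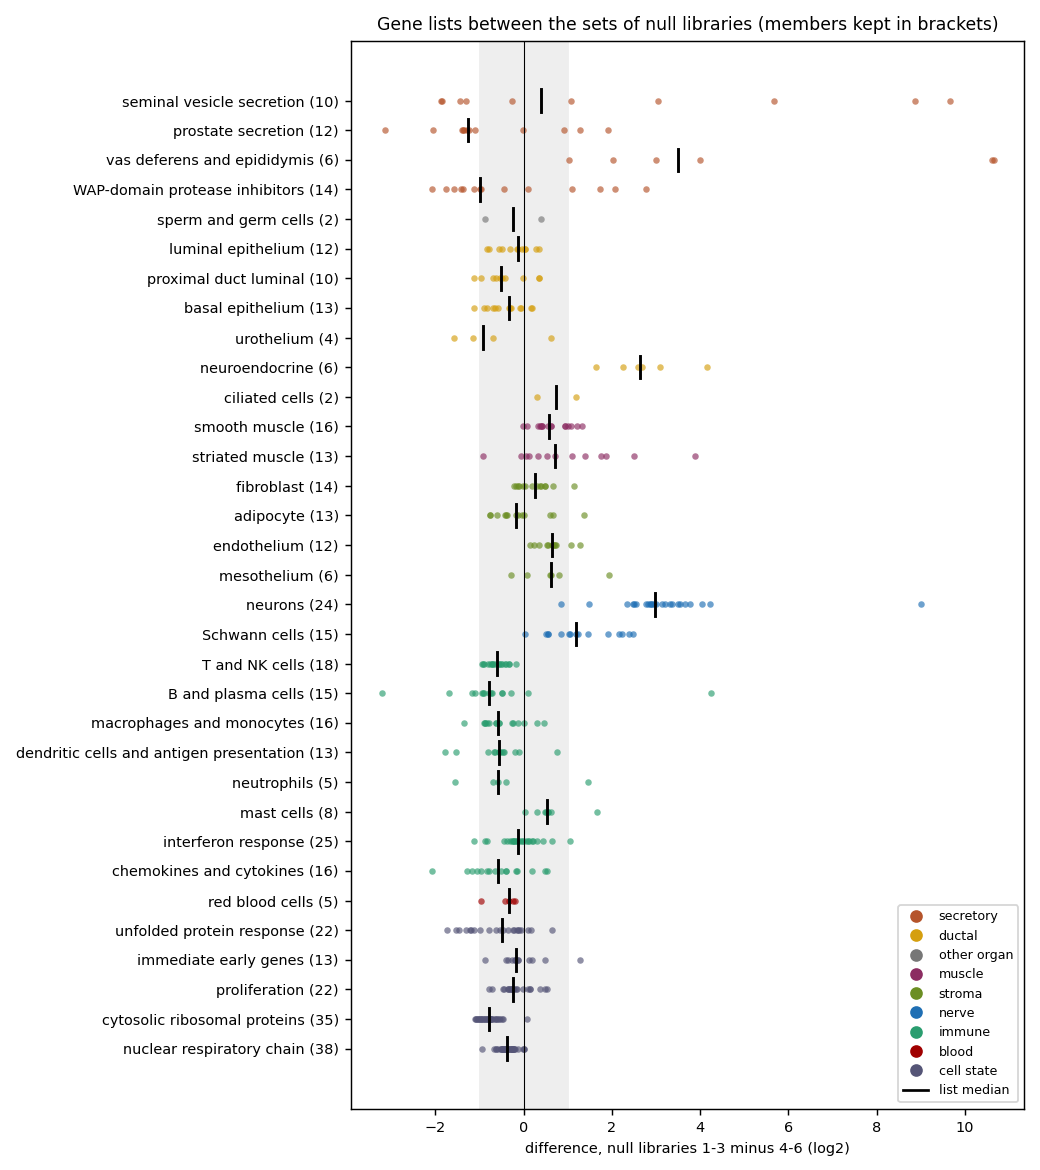
Difference of the set means (null libraries 1 to 3 minus 4 to 6, log2, x axis) for each kept gene of 33 gene lists, 1 point per gene, with the list median as a black bar and the band from -1 to 1 in grey. Neurons (median 2.97), neuroendocrine genes (2.64) and the kept vas deferens and epididymis genes (3.51) lie to the right, prostate secretion (-1.26) to the left, and seminal vesicle secretion spreads from -1.87 to 9.66.

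Secretory genes held the extremes in both directions. Akr1b7, an aldo-keto reductase abundant in mouse vas deferens, had the largest difference of all genes in the table that were kept (10.65): it was at 15.24, 15.30 and 15.16 in libraries 1 to 3, at 4.40, 4.74 and 4.60 in libraries 4 to 6, and at 2.55 ± 0.65 (SD, n = 6) in wild type. Crisp1, a sperm-coating protein of the epididymis, was at 14.20, 14.25 and 14.23 against 3.52, 3.36 and 3.95. Both genes were therefore under 5 in 9 of 12 libraries and over 14 in 3. Svs2, a clotting protein of the seminal vesicle that forms the copulatory plug, was at 21.03, 21.05 and 21.02 against 11.49, 11.29 and 11.34. Its transcript made up 12.4% to 12.7% of the summed linear values of libraries 1 to 3 and 0.015% to 0.018% of libraries 4 to 6. Pate4, a small seminal vesicle protein, was at 16.74, 16.76 and 16.69 against 7.92, 7.91 and 7.77.

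The seminal vesicle list did not move as one. Of its 10 genes, all kept, 5 were higher in libraries 1 to 3, 4 were lower and 1 was neither, with a median difference of 0.40. In the wild-type libraries numbered the same way, where most of these genes were near the floor, 8 of the 10 were higher in libraries 1 to 3, none was lower and the median was 1.21. Svs5 was at 18.92, 18.91 and 18.97 in libraries 1 to 3 and at 13.27, 13.26 and 13.24 in libraries 4 to 6. Svs4, which lies in the same gene cluster on chromosome 2, ran the other way, at 14.60, 14.59 and 14.55 against 16.43, 16.45 and 16.41. Svs3a (11.78 against 13.65), Ceacam10 (11.11 against 12.56) and Sva (8.09 against 9.40) also stood lower in libraries 1 to 3. Wild-type means ran up to 7.46 (Ceacam10), and 9 of the 10 genes stood above them in both null sets. Svs1 was the exception, at 5.27 in null libraries 1 to 3, 2.23 in libraries 4 to 6 and 2.53 in wild type. Limma, fitted across 17372 genes in all 12 libraries with Benjamini-Hochberg adjustment, called 9 of the 10 higher in null than in wild type and called 5971 genes (34.4%) higher and 5244 (30.2%) lower overall. With null libraries 1 to 3 left out it still called 9 of the 10, among 4537 genes (26.1%) higher and 4456 (25.7%) lower. With null libraries 4 to 6 left out it called all 10, among 6445 genes (37.1%) higher and 5544 (31.9%) lower. These fits share the wild-type libraries, and each takes its libraries as independent. Those with 1 null set left out also reuse the values that formed the sets. With the 2 null sets and the 2 wild-type sets averaged and taken as replicates, limma called 6 of the 10 higher and none lower. That fit called 248 genes higher and 211 lower in all.

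The 250 bases before the start of 5 of these genes are shown. Akr1b7, Crisp1 and Svs2 held the largest secretory differences, and Svs2, Svs5 and Svs4 ran in opposite directions within a single cluster. Pate4 had no promoter entry in the sequences used. Sequences are RefSeq promoters on GRCm38.p6, 5′ to 3′ on the gene's strand. Capitals mark TATAAA, the letters of the TATA box, searched on both strands (TTTATA on the other strand).
Akr1b7, chr6:34412112-34412361, + strand: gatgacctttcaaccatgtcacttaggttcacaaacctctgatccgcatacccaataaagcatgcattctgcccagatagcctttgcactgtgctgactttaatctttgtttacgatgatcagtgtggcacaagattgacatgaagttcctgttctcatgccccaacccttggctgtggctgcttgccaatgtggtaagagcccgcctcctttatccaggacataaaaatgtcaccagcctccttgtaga
Crisp1, chr17:40319208-40319457, - strand: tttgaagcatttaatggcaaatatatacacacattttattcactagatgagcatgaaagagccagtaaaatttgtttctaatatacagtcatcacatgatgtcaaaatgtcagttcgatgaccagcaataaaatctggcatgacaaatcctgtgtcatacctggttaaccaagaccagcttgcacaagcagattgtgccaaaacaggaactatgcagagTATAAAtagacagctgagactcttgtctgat
Svs2, chr2:164238342-164238591, - strand: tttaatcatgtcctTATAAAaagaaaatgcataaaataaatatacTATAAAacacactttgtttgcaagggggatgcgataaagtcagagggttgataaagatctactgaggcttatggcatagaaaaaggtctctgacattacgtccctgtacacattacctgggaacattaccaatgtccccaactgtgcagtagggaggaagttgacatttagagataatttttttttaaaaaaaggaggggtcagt
Svs5, chr2:164332515-164332764, + strand: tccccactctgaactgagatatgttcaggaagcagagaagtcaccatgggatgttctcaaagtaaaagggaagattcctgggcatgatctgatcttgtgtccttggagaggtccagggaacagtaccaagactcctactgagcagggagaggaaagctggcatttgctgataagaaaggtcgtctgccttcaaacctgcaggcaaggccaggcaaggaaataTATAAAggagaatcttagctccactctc
Svs4, chr2:164278308-164278557, - strand: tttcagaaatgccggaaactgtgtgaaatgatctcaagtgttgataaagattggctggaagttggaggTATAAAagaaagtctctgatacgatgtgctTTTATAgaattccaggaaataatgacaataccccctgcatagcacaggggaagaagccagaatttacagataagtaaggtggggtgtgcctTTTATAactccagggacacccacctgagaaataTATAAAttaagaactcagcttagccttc

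The match nearest the start began 31 bases before the start in Crisp1 and 28 bases before it in both Svs5 and Svs4. Svs4 had further matches that began 182, 152 and 61 bases before it. In Svs2 its matches began 236 and 205 bases before the annotated start. Akr1b7 had no match to it in this window. Among all 32851 promoters of this table, 12.4% held it in the same 250 bases on either strand. A match is a description of the letters only. It did not separate Svs2 and Svs5, which were higher in libraries 1 to 3, from Svs4, which was lower, since all 3 held TATAAA.

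**Figure D2:**
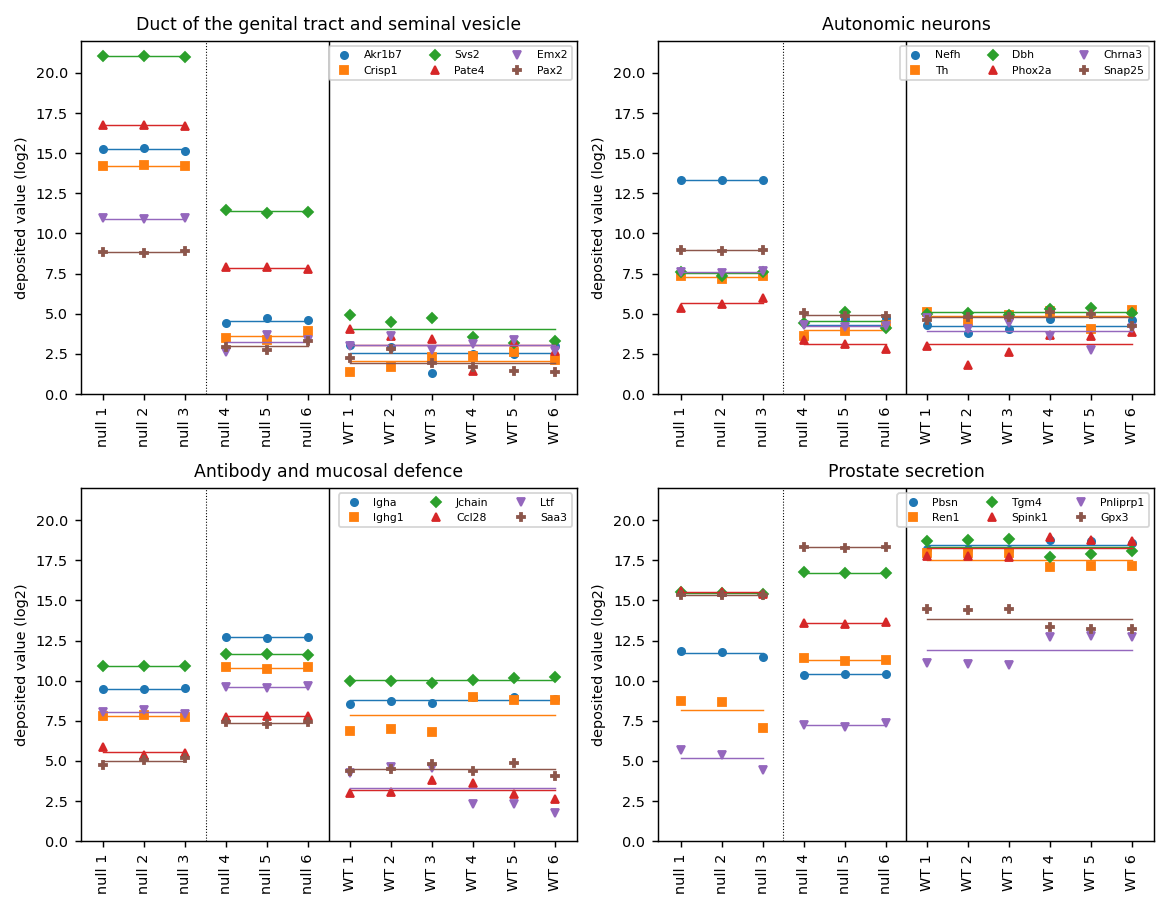
Deposited log2 values (y axis) of 24 genes in each of the 12 libraries (x axis: null 1 to 6, then wild type, WT, 1 to 6), 1 point per library, with lines at the mean of null libraries 1 to 3, null libraries 4 to 6 and wild type. Akr1b7, Crisp1, Emx2, Pax2 and the neuronal genes are high only in null libraries 1 to 3 among the 12 plotted, Igha and Ighg1 are highest in null libraries 4 to 6, and Pbsn and Ren1 are highest in wild type.

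The vas deferens and epididymis list had 18 genes, of which 6 were kept. Those 6 were all higher in libraries 1 to 3, which the filter favours, since a gene at the floor elsewhere is kept only through the set in which it is high. The 12 genes left out included Lcn5, Lcn8, Lcn9, Rnase9, Rnase10 and Crisp4, secreted products of the epididymis, and none of the 12 reached 4.3 in any null library (highest value 4.23). Adam28, a metalloprotease-disintegrin, was at 7.39 against 3.39 but at 6.73 in wild type, above libraries 4 to 6. Spink8, a serine protease inhibitor, was at 12.29 against 10.26, with 8.96 in wild type. High Akr1b7 and Crisp1 thus came with 12 of the 18 genes listed under 4.3 in every null library. Outside the list, Serpina1f, a serpin of the epididymis, was also higher in libraries 1 to 3 (12.03 against 2.99).

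Transcription factors of the Wolffian duct followed Akr1b7 and Crisp1 in part. Emx2, needed for formation of the urogenital tract, was at 10.94, 10.91 and 10.94 in libraries 1 to 3 and at 2.63, 3.70 and 3.35 in libraries 4 to 6. Pax2, a paired-box factor of kidney and duct, was at 8.87, 8.79 and 8.91 against 2.93, 2.72 and 3.32, and its relative Pax8 was at 8.72 against 2.99. Gata3, which the prostate also expresses, differed by -0.38 (12.20 against 12.57), and Lhx1 was near the floor in both sets. Pax2, Pax8 and this list were picked after their values were seen. The antisense transcript Emx2os was at 8.71 against 2.75, and since no source used here states whether counting used the strand, reads of Emx2 and Emx2os may not be separable.

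Other genes among the 12 with the largest difference in this direction included Serpina1f, a serpin of the epididymis, at 12.03 against 2.99, and Ces5a, a secreted carboxylesterase, at 8.51 against 1.49. Ptgs2, the inducible cyclooxygenase, was at 12.35, 12.40 and 12.37 against 5.35, 5.01 and 4.83, with 4.32 ± 0.77 (SD, n = 6) in wild type. Cyp4a12a, an androgen-regulated fatty acid hydroxylase, was at 11.48 against 3.09, and the POU factor Pou3f3 at 10.14 against 2.75. Bglap3, related to osteocalcin, was at 10.76, 10.79 and 10.79 against 3.29, 2.61 and 3.28, but unlike the others it was at 9.43 ± 0.04 in wild type. Libraries 4 to 6 thus stood 6.37 below wild type and libraries 1 to 3 stood 1.35 above it, given without a test because the gene was picked for its difference between the sets.

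Prostate secretory genes lay mostly on the other side. Of 14 listed, 12 were kept, 2 were higher in libraries 1 to 3, 8 were lower and 2 were neither, with a median of -1.26. Renin 1 (Ren1) was at 8.75, 8.67 and 7.06 in libraries 1 to 3 and at 11.39, 11.23 and 11.28 in libraries 4 to 6, and it was the only one of 9167 genes with a mean of at least 8 in libraries 1 to 3 whose SD within the set exceeded 0.5. Tgm4, the prostate transglutaminase that cross-links seminal vesicle proteins, was at 15.47 against 16.72. Probasin, given above, and the trypsin inhibitor Spink1 (15.51 against 13.60) were the 2 that were higher. Limma called 10 of the 12 lower in null than in wild type and none higher with all libraries, beside 30.2% of all genes lower. With libraries 1 to 3 left out it called 10 lower and 2 higher, beside 25.7% of all genes lower. With libraries 4 to 6 left out it called 12 lower, beside 31.9%. Those 2 fits reuse the values that formed the sets. With set means as replicates limma called 5 of the 12 lower and none higher, among 211 genes lower in all. The WAP-domain protease inhibitors, many of which sit beside the seminal vesicle cluster on chromosome 2, were divided: 14 of 19 were kept, 4 of them higher and 6 lower. Wfdc12 was at 12.21 against 10.14 and Wfdc10 at 7.22 against 4.46, while Wfdc6b was at 9.06 against 11.13 and Eppin, a sperm-binding inhibitor, at 6.99 against 8.75.

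Nerve genes separated the sets as a block. All 24 neuronal genes listed were kept, 23 were higher in libraries 1 to 3 and none was lower. The sets did not overlap for any of the 24, beside 67.6% of all genes kept without overlap. The median difference was 2.97, beside -0.01 over all genes kept. The wild-type mean was nearer to libraries 4 to 6 than to libraries 1 to 3 for all 24, as it was for 67.7% of all genes kept. Tyrosine hydroxylase (Th), the first enzyme of noradrenaline synthesis, was at 7.34, 7.18 and 7.35 against 3.62, 3.96 and 4.31. Dopamine beta-hydroxylase (Dbh), a later enzyme of the same pathway, was at 7.61, 7.38 and 7.62 against 4.41, 5.13 and 4.10. Genes of the cell body were among those that separated: Phox2a, a homeobox factor of autonomic neurons, at 5.65 against 3.11, and Chrna3, the nicotinic receptor subunit of ganglion cells, at 7.57, 7.57 and 7.64 against 4.32, 4.15 and 4.23. Hand2, which stromal cells can also express, was the exception, at 7.27 against 6.42.

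Neurofilament genes differed unequally. The heavy chain Nefh was at 13.35, 13.34 and 13.33 against 3.56, 4.69 and 4.74, a difference of 9.01. The medium and light chains, which form the same filaments, differed by 4.22 (Nefm) and 3.65 (Nefl). Snap25, a vesicle fusion protein of synapses, was at 8.996, 8.921 and 8.960 against 5.05, 4.86 and 4.87. Stmn2 (9.30 against 6.48), Uchl1 (9.32 against 6.98) and the peripheral neuron filament Prph (9.47 against 6.26) were above 6 in both sets, so neuronal transcripts were measurable in libraries 4 to 6 too. Wild type stood near those levels, with 6.62, 7.52 and 7.13 for the 3 genes.

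Transmitter genes other than those of noradrenaline were also higher in libraries 1 to 3. The cholinergic list, added after the data were seen, had 4 of 5 genes in the table, and all 4 were higher: the choline transporter Slc5a7 was at 6.83 against 3.32, choline acetyltransferase (Chat) at 4.99 against 1.96 and vasoactive intestinal peptide (Vip) at 8.518, 8.596 and 8.452 against 3.54, 4.88 and 4.56. Nos1, the neuronal nitric oxide synthase, differed by 1.02 only, at 8.76 against 7.74, with 3.84 in wild type. Neuroendocrine genes, of which 6 of 9 were kept, were all 6 higher with a median of 2.64, including chromogranin B (Chgb, 7.30 against 3.16) and secretogranin 2 (Scg2, 7.75 against 4.68). Neurons also express these granule genes. Insm1, a factor of neuroendocrine cells, was not kept, with set means of 2.15 and 2.97. The 3 neuroendocrine genes left out did not exceed 4.255 in any null library. A gene under 4 in libraries 4 to 6 is kept only through libraries 1 to 3, which favours the count of neuroendocrine genes higher.

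Schwann cells, the glia that wrap peripheral axons, gave a smaller median of 1.19: 15 of 16 genes were kept, 10 were higher in libraries 1 to 3 and none was lower, or 6 after quantile normalization. Fabp7, a fatty acid binding protein of glia, was at 6.12, 6.07 and 6.25 against 3.81, 3.66 and 3.79, with 4.37 ± 0.48 (SD, n = 6) in wild type. Sox10, the glial lineage factor, was at 6.47, 6.33 and 6.20 against 5.18, 5.54 and 4.72. Mbp (10.12 against 9.57) fell short of the rule, as did Erbb3 (11.33 against 11.31), which epithelium also expresses. In the genotype comparison with all libraries, limma called 9 of 24 neuronal and 5 of 15 Schwann cell genes higher in null and none lower, near the share of all genes called higher (34.4%). The fits with 1 null set left out reuse the values that formed the sets, so their counts describe the split and do not support it. With libraries 4 to 6 left out limma called 24 of 24 and 15 of 15 higher, beside 37.1% of all genes. With libraries 1 to 3 left out it called 4 neuronal genes lower and none higher (6 lower and 1 higher at an unadjusted p under 0.05), and 3 Schwann cell genes higher and 2 lower, beside 26.1% of all genes higher and 25.7% lower. With the 2 null sets and the 2 wild-type sets averaged and taken as replicates, limma called none of either list, with 0 of 24 neuronal and 2 of 15 Schwann cell genes at an unadjusted p under 0.05, and 248 genes higher and 211 lower overall. In bulk tissue, fewer cells of a type and less RNA per cell cannot be told apart.

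**Figure D3:**
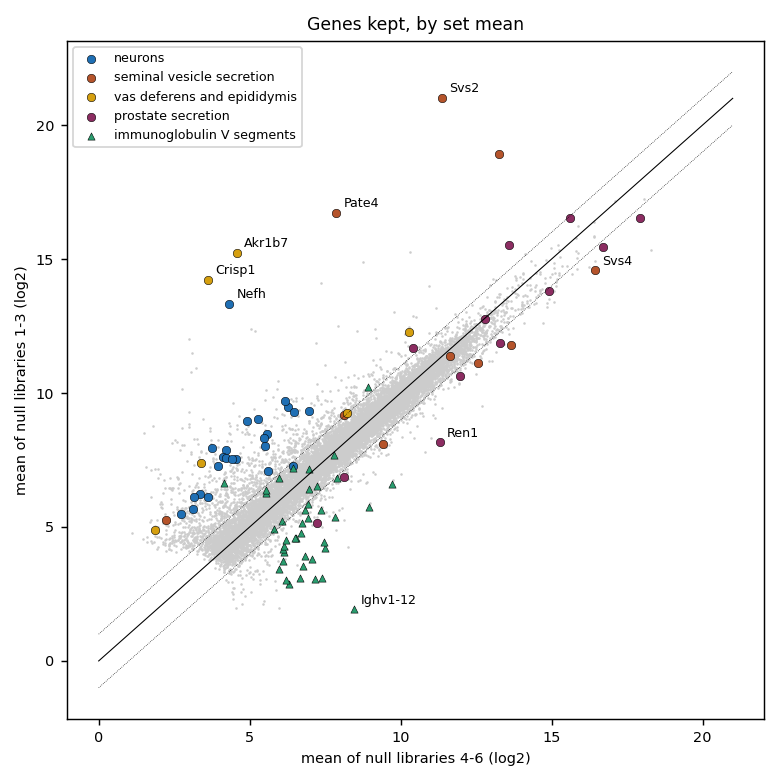
Mean of null libraries 1 to 3 (y axis, log2) against the mean of null libraries 4 to 6 (x axis, log2) for the kept genes that have a symbol (grey), with 4 gene lists as circles and immunoglobulin V segments as triangles. The solid line marks equal means and the dotted lines a difference of 1: neuronal genes lie above the upper line except Hand2 (7.27 against 6.42), and most V segments lie below the lower line.

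Muscle separated the sets less. All 16 smooth muscle genes were kept, 4 were higher in libraries 1 to 3 and none was lower, with a median of 0.58. The values of the sets did not overlap for 15, beside 67.6% of all genes kept. Without the trend of the difference on transcript length, 1 of the 16 passed. The smooth muscle myosin heavy chain Myh11 was at 15.23, 15.18 and 15.19 against 14.18, 14.05 and 14.16. Its kinase Mylk was at 14.26 against 13.05 and the coactivator Myocd, which switches on smooth muscle genes, at 7.79 against 6.48. Abundant contractile genes differed less: Acta2 by 0.41, Tagln by 0.08 and desmin (Des) by -0.02. Of 20 striated muscle genes 13 were kept and 6 were higher. Casq1, the calcium store protein of skeletal muscle, was at 6.973 against 3.102 and titin (Ttn) at 6.30 against 3.80, but the fast myosin Myh4 did not reach 2.8 in any null library and skeletal actin (Acta1) was at 11.66 against 11.72.

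Among the remaining stroma, endothelial genes differed about as much as smooth muscle. Their 12 differences ran from 0.13 to 1.27 with a median of 0.65. The sets did not overlap for 10 of them, beside 67.6% of all genes kept. The 2 that passed the rule were Vwf (9.36 against 8.09) and Cldn5 (7.76 against 6.69). Of 6 mesothelial genes 1 was higher, the membrane glycoprotein Gpm6a (7.88 against 5.94), with a median of 0.61. One of 14 fibroblast genes was higher, the matrix proteoglycan lumican (Lum, 9.21 against 8.07), with a median of 0.25. Over all genes kept, 7.73% were higher, so the fibroblast count was near that share, and single genes in lists this short do not set a list apart. Kit, the receptor of mast cells and of pacemaker cells in smooth muscle, was at 8.52 against 6.86 and was the only one of 8 mast cell genes to pass the rule. Among ducts, none of the 10 proximal luminal genes kept was higher and 1 was lower, with a median of -0.51. Of 13 basal genes 1 was lower, Krt17 (5.92 against 7.05), with a median of -0.33. Regardless of size, the sets did not overlap for 7 lower and 2 higher proximal luminal genes and for 10 lower and 2 higher basal genes. Over all genes kept, 67.6% did not overlap and 2.27% were lower by the rule. The urothelial plaque genes Upk1a (11.84 against 13.41) and Upk2 (6.92 against 8.06) were lower in libraries 1 to 3, while Krt20 of mature urothelium was near the floor in both sets. The 4 urothelial genes kept had a median of -0.91. Of the sperm and germ cell list 2 of 10 genes were kept and neither passed the rule.

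Of the immune lists, mucosal defence had a median of -2.19 and mast cells one of 0.53, while the others ran from -0.78 to -0.13. Among those others, 4 of 15 B and plasma cell, 4 of 16 chemokine and cytokine and 2 of 13 dendritic cell genes were lower. Of 5 neutrophil genes 1 was lower and 1 higher, and of 18 T and NK cell genes none passed the rule. Over all genes kept, 2.27% were lower and 7.73% higher. Of the 12 genes with the largest difference in favour of libraries 4 to 6, all but Ms4a5 were immunoglobulin genes. Igha, the constant region of immunoglobulin A, was at 9.49, 9.48 and 9.53 against 12.74, 12.64 and 12.74, with 8.78 ± 0.21 (SD, n = 6) in wild type. Ighg1, a gene picked with its values in view, was at 7.82, 7.87 and 7.73 against 10.85, 10.71 and 10.84. Of 16 B and plasma cell genes 15 were kept, 4 were lower, 1 was higher, and the median was -0.78. After quantile normalization 7 were lower. Mzb1, a chaperone of plasma cells, was at 6.18 against 7.36 and the B cell receptor partner Cd22 at 6.07 against 7.16. The complement receptor Cr2 was the exception, at 8.74, 8.83 and 8.87 against 4.56, 4.62 and 4.51. In the wild-type libraries, which the choice of sets did not use, 12 of these 15 genes were lower in libraries 1 to 3 than in 4 to 6 and the median was -1.89.

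Segments of the variable region also stood apart between the sets. Of 119 immunoglobulin genes kept 64 were lower and 8 higher in libraries 1 to 3, with a median of -1.09. Ighv1-12 was at 2.82, 1.19 and 1.81 against 8.38, 8.56 and 8.41, and was at 1.98 ± 0.74 in wild type. Igkv6-23 was at 3.68, 3.92 and 3.86 against 6.82, 7.27 and 7.08. Of 41 V segments that reached 6 in a null library 29 were lower and 2 higher, and the median absolute difference between the sets was 1.92, while the median SD within a set was 0.18 and 0.16. Reaching 6 in 1 set was enough to be counted here, which favours large differences between the sets. Other genes with a highest value from 6 to 9, 6669 in number, had a median absolute difference of 0.31 and median SDs of 0.09 and 0.11. The V segments were not held to that upper limit (Igkv3-2 reached 10.27), so the groups are not matched in level. Within a set, the 3 libraries thus gave like levels of the same segments, with more spread than other genes of that range. V segments resemble one another closely, so reads may be divided among them.

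**Figure D4:**
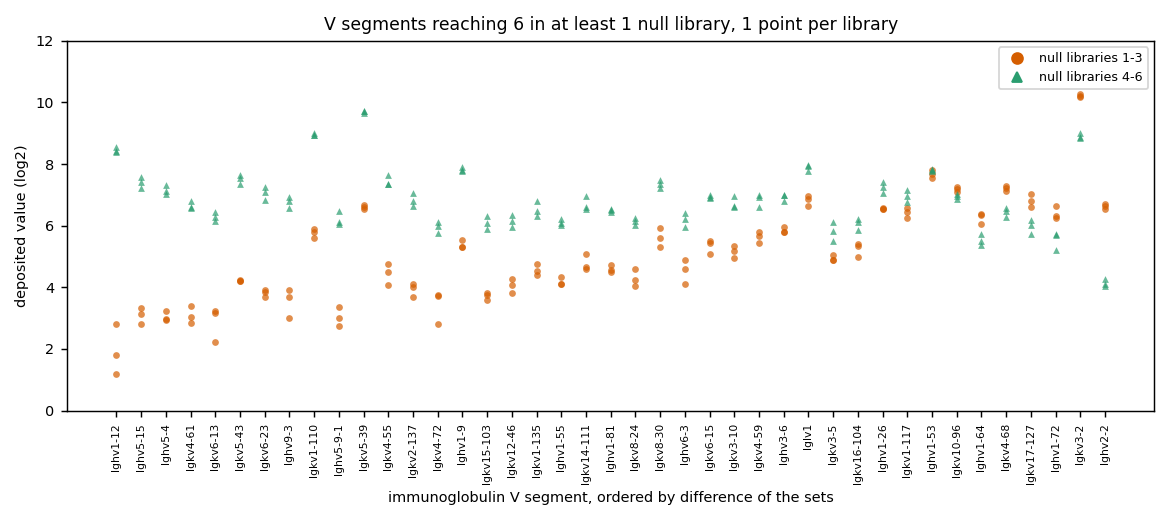
Deposited log2 value (y axis) of each of 41 immunoglobulin V segments that reached 6 in a null library (x axis, ordered by the difference of the sets), 1 point per library, circles for null libraries 1 to 3 and triangles for 4 to 6. The 3 points of a set lie together while the sets lie apart for most segments, with 29 lower and 2 higher in libraries 1 to 3. A segment could reach 6 through 1 set only.

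Other white cells differed by less. None of 18 T and NK cell genes passed the rule, with all 18 differences between -0.95 and -0.18 and a median of -0.60, and 5 passed it after quantile normalization. In the wild-type libraries numbered the same way, 8 of the 18 were lower in libraries 1 to 3, beside 1.45% of all genes kept, and the median was -0.93. Among 16 macrophage genes 1 was lower and the median was -0.59. A pair of dendritic cell genes linked to lymphoid tissue, Ccr7 (4.29 against 5.83) and Ccl22 (3.97 against 5.75), were lower, as was the lymphoid chemokine Ccl19 (2.70 against 4.77). Mucosal defence genes, a list added after the data were seen, were lower for 6 of 8: Ccl28, which draws plasma cells that make immunoglobulin A, was at 5.57 against 7.77, lactotransferrin (Ltf) at 8.05 against 9.60 and serum amyloid A3 (Saa3) at 4.98 against 7.39. Ltf is also in the neutrophil list, so it is counted in both lists. Pigr, which carries immunoglobulin A across epithelium, was 0.60 higher in libraries 1 to 3. Interferon-response genes did not separate the sets, with 1 of 25 higher, 1 lower and a median of -0.13.

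Genes of the unfolded protein response of the endoplasmic reticulum were lower in libraries 1 to 3 for 8 of 22. None was higher, and the median was -0.49. After quantile normalization 4 of the 22 were lower. Sdf2l1 was at 11.19 against 12.93, the disulfide isomerase Pdia4 at 12.62 against 14.08 and the chaperone Hspa5 at 14.15, 14.15 and 14.12 against 15.13, 15.17 and 15.12. Extracellular glutathione peroxidase (Gpx3), also picked with its values in view, was at 15.35, 15.33 and 15.33 against 18.33, 18.27 and 18.32. It made up 0.240% to 0.245% of the summed linear values in libraries 1 to 3 and 1.95% to 2.02% in libraries 4 to 6. Of 35 cytosolic ribosomal protein genes 6 were lower, none was higher and the median was -0.80, and without the trend on transcript length none of the 35 passed. None of 38 nuclear respiratory chain genes passed the rule, with a median of -0.37, and none of 22 proliferation genes did, with a median of -0.25. In wild type the ribosomal list also stood lower in libraries 1 to 3 than in 4 to 6, with a median of -0.60.

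Transcript length moved with the sets. From the shortest to the longest of 5 equal classes of the kept genes with a known length, the median difference was -0.25, -0.14, -0.03, 0.07 and 0.23, at median lengths of 953, 2106, 3089, 4230.5 and 6559 bases. Neuronal genes had a median length of 3396.5 bases and ribosomal protein genes 1120 bases. With the trend on length removed, 23 of the 24 neuronal genes were still higher and their median was 2.96, and the smooth muscle and ribosomal counts changed as given above. The abundance of a few transcripts differed as well, the 50 most abundant genes taking 27.6% to 27.9% of the summed linear values in libraries 1 to 3 and 18.9% to 19.2% in libraries 4 to 6.

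Wild type stood nearer to one set or the other by gene. Emx2, Pax2, Pax8, Svs2, Th and Nefh were higher in each of null libraries 1 to 3 than in any of the other 9 libraries, while Igha, Ighv1-12 and Gpx3 were highest in null libraries 4 to 6. For 56 genes every value was at most 4.5 in libraries 4 to 6 and at least 7 in libraries 1 to 3, and 41 of them were at most 4.5 in every wild-type library. The reverse pattern was found in 4 genes, all immunoglobulin V segments. Across the genes kept, the difference between null sets and the difference between the wild-type libraries numbered the same way had a Pearson r of 0.16 and a Spearman rho of 0.29, which describes genes of these libraries and not replicates.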

How the data were processed

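Poly-A RNA from prostates of paraquat-treated mice gave 12 libraries for the HiSeq2000, per the labels' protocols. Per the submitters' processing notes, the tools were DESeq, Cufflinks, TopHat and CASAVA 1.8.2 and the builds GRCm38.p2 and mm9, with no roles given. The deposited table holds log2 values normalized between libraries by the authors, 1 per gene and library. Whole reads could be recovered for only a narrow range of values (tolerance 0.1), so the planned count test was replaced by limma 3.58.1 with trend in R 4.3.3, tested on simulated data. Ensembl IDs were matched to GENCODE M21 on GRCm38 for 37607 of 39179 genes (96.0%).

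Genes that reached 4 in no fewer than 3 of the 6 null libraries were compared between the sets by a rule of size, a difference of set means of at least 1 with no overlap, and without a test. Null was compared with wild type by genotype label over genes at 4 or more in 3 or more of 12 libraries, at an adjusted p of 0.05. The sets, the genes and the 33 gene lists were chosen with earlier results of these data known, and 4 more lists were added after the values were seen. Named genes are the 12 with the largest difference in each direction (higher set mean at least 6, no predicted gene names), up to 4 members per list, list members and tissue markers that a count or contrast turns on, and a group chosen after their values were seen: Pax2, Pax8, Emx2os, Gpx3, Ighg1 and those in the closing observations. The name and level of the targeted gene, and some list members, are not reported here. Alternatives were library totals, upper-quartile and quantile scaling, other filters and sizes, removal of the trend on transcript length, and leaving out libraries. P-values measure only the spread between these libraries, which may be technical.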

Additional observations from a re-analysis of the deposited data

How the results depend on the processing

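The direction of the counts held under every alternative run. So did that of the vas deferens, smooth muscle, neuronal, Schwann cell, B and plasma cell and unfolded protein response medians. For the seminal vesicle list the sign did not hold: its median of 0.40 was -0.26 with a minimum value of 6. Counts of genes higher and lower in null libraries 1 to 3 were 2797 and 1894 with a size of 0.5 and 478 and 64 with a size of 2, 815 genes were higher with a minimum value of 6, and 631 were lower without a filter. Leaving out 1 library gave 1299 to 1320 higher and 381 to 410 lower.

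With library totals the medians were 0.33 (seminal vesicle), 0.51 (smooth muscle), 1.12 (Schwann cells) and -0.57 (unfolded protein response). Totals without the 50 most abundant genes gave 0.49, 0.67, 1.28 and -0.40, with -0.69 for B and plasma cells. Quantile normalization gave 0.46, 0.72, 0.95 and -0.31 for the same 4 lists, 3.34 for vas deferens, 2.77 for neurons, -0.97 for B and plasma cells and 0.0523 for luminal epithelium, where the main median was -0.14. Upper-quartile centring gave 0.61 for smooth muscle. Removing the trend on length gave 0.69 (seminal vesicle), 0.62 (smooth muscle), -0.67 (B and plasma cells) and -0.54 (unfolded protein response). A minimum of 6 gave 4.00 (vas deferens), 3.14 (neurons), 1.545 (Schwann cells) and -0.91 (B and plasma cells). With no filter vas deferens was at 0.85 and sperm genes at 0.16. Leaving out 1 library moved the medians from 0.36 to 0.44 (seminal vesicle), 3.38 to 3.71 (vas deferens) and 0.55 to 0.60 (smooth muscle). The same step gave 2.922 to 3.098 (neurons) and 1.02 to 1.21 (Schwann cells). It gave -0.89 to -0.77 (B and plasma cells) and -0.50 to -0.48 (unfolded protein response). The interferon median ran from -0.1611 to 0.0013, the latter without null library 5.

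Genotype calls by limma numbered 248 higher and 211 lower with set means as replicates, 9327 and 2663 with library totals (median of all genes 0.40), and 5383 to 6000 and 4905 to 5236 with 1 library left out. Null minus wild type turned with null libraries 4 to 6 left out to 1.35 in Bglap3, -0.0444 in Ighv1-12, -1.13 in Ighv5-4, -0.92 in Igkv4-61, -0.34 in Igkv6-13 and -1.13 in Ighv9-3, and with libraries 1 to 3 left out to -0.62 in Ces5a. Those are the genes among the 24 with the largest differences between the sets. Over all 202 named genes the sign turned for 27 with libraries 4 to 6 left out (Adam28 from -1.34 to 0.67) and for 35 with libraries 1 to 3 left out (Casq1 from 0.85 to -1.09, Chgb from 1.63 to -0.44, Vip from 1.70 to -0.40). The cause of these shifts was not tested. No paired analysis was possible because the labels give no replicate numbers. Low genes are limited by the floor of the table, where values of unexpressed genes scatter.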

Other observations

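Further genes, all named after their values were seen, add to the description of the sets. Vacuolar proton pump subunits of acid-secreting cells, Atp6v1b1 and Atp6v1g3, were at 7.66, 7.68 and 7.97 and at 7.83, 7.87 and 7.90 in null libraries 1 to 3, against 2.89 to 4.26 and 3.43 to 4.07 in libraries 4 to 6. Aqp2, a water channel of kidney collecting duct and vas deferens, was at 7.62 against 3.34, the endocytic receptor Lrp2 at 7.53 against 3.77 and the cadherin Cdh16 at 7.79 against 3.39. All 5 were at 2.95 or less on average in wild type. Plau, the urokinase plasminogen activator, was at 14.12, 14.12 and 14.08 against 7.34, 7.42 and 7.33, and Pfkfb3, which sets the pace of glycolysis, at 14.90, 14.90 and 14.90 against 8.81, 8.76 and 8.71. These genes had wild-type means of 6.82 and 8.01, close to libraries 4 to 6.

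In the other direction, the gastric proton pump subunit Atp4a was at 7.03, 6.97 and 6.95 in libraries 1 to 3 and at 10.07, 9.96 and 9.97 in libraries 4 to 6. The sodium-proton exchanger Slc9a3 was at 4.90 against 7.85. Spp1 (osteopontin) was at 6.77 against 9.74 and Mmp12, the macrophage elastase, at 5.27 against 8.11. Ms4a5 was at 4.25 against 8.26, with 13.18 in wild type, and so was low in both null sets.

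Adrenal genes, a list added after the data were seen, did not separate as a group. Cyp21a1, a steroid 21-hydroxylase, was at 7.12, 7.23 and 7.04 against 1.38, 2.41 and 1.36, while Pnmt, Cyp11b1, Cyp11b2, Mc2r and Nr5a1 were not kept and did not exceed 3.73 in any null library. Star was at 7.02 against 7.01.

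Bglap3 was not alone in standing low in null libraries 4 to 6 and high elsewhere. Scgb1b20, a secretoglobin, was at 7.61, 7.68 and 7.87 in null libraries 1 to 3, at 3.52, 4.16 and 3.92 in libraries 4 to 6 and at 8.81 ± 0.19 (SD, n = 6) in wild type. Upb1, an enzyme of pyrimidine breakdown, was at 9.57, 9.71 and 9.59, at 4.79, 4.41 and 4.16, and at 9.15 ± 0.31 in wild type. Of the 56 genes at most 4.5 in libraries 4 to 6 and at least 7 in libraries 1 to 3, 2 were at 7 or more in every wild-type library, Bglap3 and Scgb1b20.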
